A study of Homo sapiens with 9 samples.

Results

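The EGR, FOS and JUN immediate early factors are 10 genes of human B cells, namely EGR1, EGR2, EGR3, FOS, FOSB, FOSL2, JUN, JUNB, JUND and IER2. They were chosen by name, with no measured value in the rule, and all 10 were found among the 57500 genes counted in each library. Polyadenylated RNA was sequenced from BJAB cells, a long-cultured human B lymphoma line labelled as Burkitt lymphoma, in 3 groups of 3 libraries, all of sorted and untreated cells. TACI short cells were given the short isoform of TACI, TACI long cells the long isoform, and control cells are the parental line. The receptor TACI, the product of TNFRSF13B, lets B cells respond to the cytokines BAFF and APRIL. The sample titles call the cells stably transfected and the series' design text calls them transduced, and neither gives the promoter of the transgene or says whether a line was 1 clone. No vector-only line was used here, so the isoform, the transgene and the derivation of the line differ from control together.

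Immediate early genes are transcribed within minutes of a signal, without new protein synthesis, and their RNAs are short-lived. In B cells the antigen receptor acts through Ras and ERK on the factors SRF and ELK, which bind serum response elements of genes such as EGR1 and FOS. EGR proteins bind DNA through zinc fingers. FOS proteins pair with JUN proteins to form the factor AP-1, in which JUNB and JUND can temper JUN. IER2 is a nuclear protein induced along with them.

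Per the counted annotation (hg38), EGR1 (ENSG00000120738) lies at chr5:138465490-138469315 and FOS (ENSG00000170345) at chr14:75278774-75282230, both on the plus strand. On chromosome 19, JUNB (ENSG00000171223) lies at chr19:12791496-12793315 and IER2 (ENSG00000160888) at chr19:13150415-13154908 on the plus strand, and JUND (ENSG00000130522) at chr19:18279760-18281622 on the minus strand. Counts cover all exons of a gene, untranslated parts included.

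Libraries held 40322136 to 50079203 counts each. The 10 genes took 0.118, 0.12 and 0.113% of their library's counts in TACI short, 0.0299, 0.0288 and 0.0292% in TACI long, and 0.147, 0.148 and 0.152% in control. TNFRSF13B stood at 2964, 2965 and 2655 CPM (counts scaled to the library total) in TACI short and 691, 704 and 738 CPM in TACI long, against 28.8, 15.2 and 14.6 CPM in control. The B-cell markers PAX5, a B-lineage transcription factor, and CD79A, a subunit of the antigen receptor, were present in every library. PAX5 lay between 384 and 422 CPM in TACI short and between 352 and 388 CPM in TACI long, against 338 to 372 CPM in control. CD79A lay between 733 and 764 CPM in TACI short and between 948 and 987 CPM in TACI long, against 938 to 1019 CPM in control. TACI short replicates 2 and 3 stood apart from the other libraries. They held 128 and 124 CPM of RNA of 8 myeloid markers in sum, against 28.7 CPM in TACI short replicate 1, 15.5 to 29.5 CPM in TACI long and 11.7 to 22.3 CPM in control. These 2 libraries had a count for 32882 and 32209 genes, against 24307 to 25938 genes in the other 7. The fibroblast collagen gene COL1A1 was high in them as well, with 3.24, 11 and 10.2 CPM in TACI short replicates 1, 2 and 3, 1.53 to 2.55 CPM in TACI long and 1.5 to 2.61 CPM in control. COL1A2 had 0.653, 3.99 and 4.11 CPM in TACI short, 0.51 to 0.993 CPM in TACI long and 0.913 to 1.44 CPM in control. The fibroblast gene DCN was not raised in them over replicate 1 or control, with 2.43, 2.01 and 2.44 CPM in TACI short. It had 0.354 to 0.548 CPM in TACI long and 2.76 to 3.02 CPM in control. The epithelial gene EPCAM had 76.7, 73.9 and 73.4 CPM in TACI short and 111 to 116 CPM in TACI long, against 95 to 96.9 CPM in control. KRT8 and KRT18, the other genes of that marker list, had almost no counts. Of the 8 myeloid markers, 4 were called higher in TACI short than in control, beside 31.5% of all genes. Against TACI long 2 of the 8 were called higher, beside 35.2% of all genes. Whether replicates are separate cultures is not given in the labels, and p-values therefore cover only the variation among these libraries, possibly technical.

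The sequences before the start sites of the 4 genes with the highest CPM, EGR1, IER2, JUND and JUNB, are shown because these genes carry most of the RNA described here. Each run holds the 250 bases before the RefSeq start (GRCh38.p14), 5′ to 3′ on the gene's strand, and capitals mark any match to the 5 motifs searched on both strands. EGR1 lies at chr5:138465229-138465478 on the plus strand, IER2 at chr19:13150161-13150410 on the plus strand, JUND at chr19:18281623-18281872 on the minus strand and JUNB at chr19:12791236-12791485 on the plus strand.
EGR1: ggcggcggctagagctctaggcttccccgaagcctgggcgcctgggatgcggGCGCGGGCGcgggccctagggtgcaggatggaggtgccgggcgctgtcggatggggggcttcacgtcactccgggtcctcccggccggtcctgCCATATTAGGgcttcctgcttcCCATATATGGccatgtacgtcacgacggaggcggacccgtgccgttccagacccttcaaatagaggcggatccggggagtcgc
IER2: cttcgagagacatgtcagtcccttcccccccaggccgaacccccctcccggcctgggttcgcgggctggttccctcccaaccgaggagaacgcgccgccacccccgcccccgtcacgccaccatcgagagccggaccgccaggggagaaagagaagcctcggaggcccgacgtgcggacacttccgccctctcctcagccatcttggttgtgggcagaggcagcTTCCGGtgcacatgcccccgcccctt
JUND: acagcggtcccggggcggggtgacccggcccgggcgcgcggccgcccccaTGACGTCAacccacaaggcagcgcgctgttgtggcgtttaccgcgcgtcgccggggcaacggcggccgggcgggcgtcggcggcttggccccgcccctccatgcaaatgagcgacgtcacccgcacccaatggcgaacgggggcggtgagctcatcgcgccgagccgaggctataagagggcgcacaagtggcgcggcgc
JUNB: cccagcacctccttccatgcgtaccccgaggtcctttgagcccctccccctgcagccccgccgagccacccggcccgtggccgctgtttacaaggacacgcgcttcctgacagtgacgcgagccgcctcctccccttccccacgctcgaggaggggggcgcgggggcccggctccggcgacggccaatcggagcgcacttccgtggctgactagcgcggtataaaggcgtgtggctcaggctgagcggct

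The EGR1 window held 2 CArG boxes, the core of the serum response element, which began 105 and 83 bases before the start, and 1 match to the EGR site GCGNGGGCG. Of the 9 genes with a RefSeq promoter entry, EGR2 was the other with a CArG box in this window, 1 match that began 71 bases before the start. EGR3 had no such entry and was not searched. A CArG box was present in 1.16% of the 35116 promoter windows of the same length, and the EGR site in 8.41%. The JUND window held 1 CRE, the cAMP response element TGACGTCA, which 1.65% of windows hold. IER2 and FOSB each held 1 match to CCGGAA, a narrow form of the ETS core, present in 14.5% of windows. Looser forms of the ETS core were not searched. The AP-1 site TGANTCA, in 6.57% of windows, was found before none of the 9 genes with a RefSeq promoter entry. FOS, FOSL2, JUN and JUNB held none of the 5 motifs, in the forms searched, in this window. For FOS, FOSL2, JUN and EGR2 the RefSeq start lies inside the counted gene. Sequence before the counted start of these genes was thus not, or only partly, searched. A match is a description of these letters and says nothing of a factor's binding.

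EGR1 RNA was the most abundant of the set in control cells, and in TACI long it moved most. Cells with the long isoform held a small remainder of it, and cells with the short isoform about the middle. EGR1 stood at 464, 466 and 431 CPM in the TACI short libraries and 38.3, 33.1 and 34.3 CPM in the TACI long libraries, against 811, 841 and 864 CPM in control. The 3 groups did not overlap. EGR1 fell 23.8-fold in TACI long against control (log2 fold change -4.57 ± 0.06, SE; adjusted p = 1.72e-23 by edgeR's quasi-likelihood test, with Benjamini-Hochberg adjustment over 16672 genes), which placed it 11th from the lowest of all genes tested. In TACI short it fell 2.02-fold against control (-1.02 ± 0.05, adjusted p = 1.16e-13). In bulk RNA, fewer cells that express a gene and less RNA per cell cannot be told apart.

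**Figure D1:**
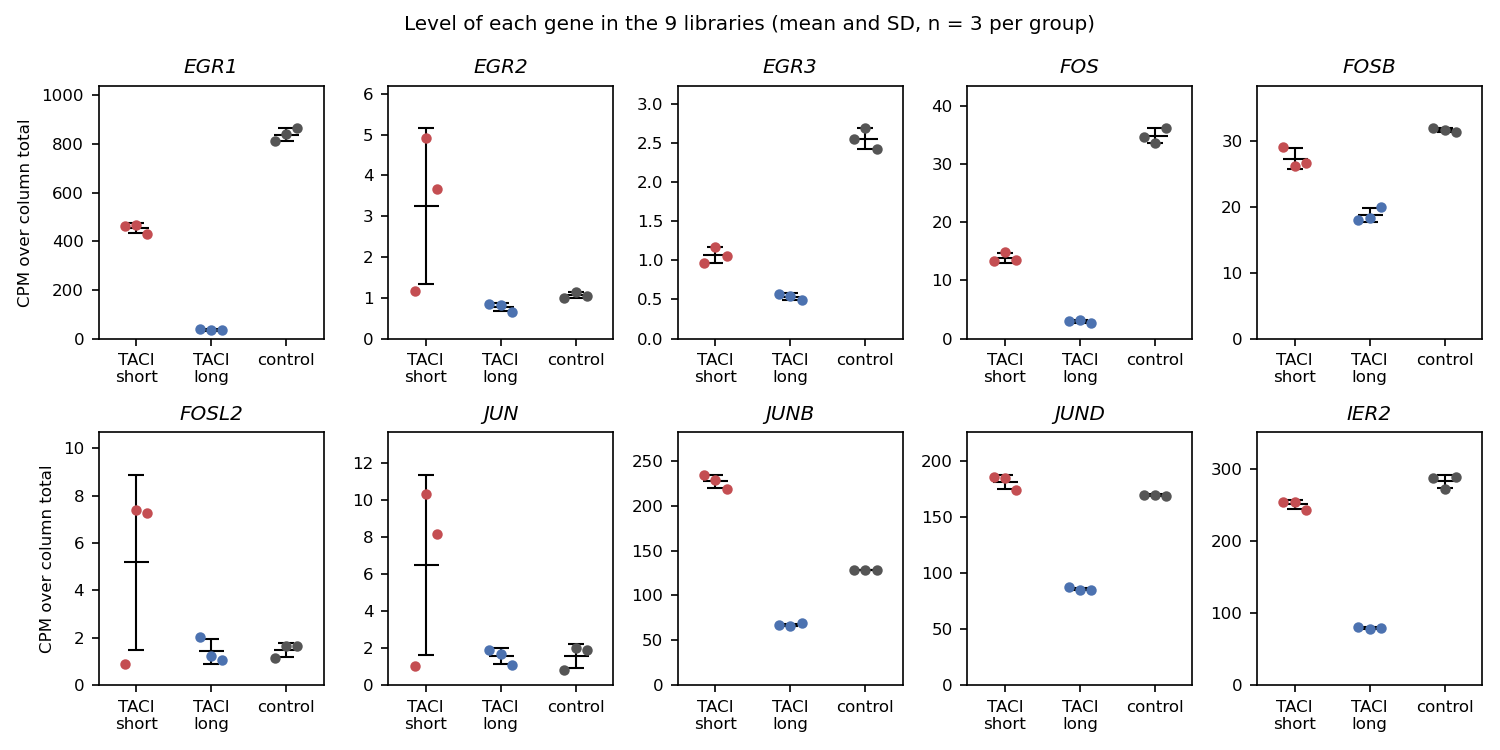
CPM over the column total of each of the 10 genes (vertical axes, each from 0) in TACI short, TACI long and control libraries (horizontal axis); points are libraries and bars are the mean and SD of 3. EGR1, FOS, EGR3, JUNB, JUND, IER2 and FOSB are lowest in all 3 TACI long libraries, while EGR2, FOSL2 and JUN are high in 2 of the 3 TACI short libraries.

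EGR1 supplied 38.2 to 39.2% of the counts of the set in TACI short and 11.5 to 12.8% in TACI long, against 55.2 to 56.7% in control. The fall was not that of EGR1 alone. The other 9 genes summed to 720, 733 and 697 CPM in TACI short and 261, 255 and 258 CPM in TACI long, against 658, 643 and 661 CPM in control. Scaled with TMM factors, which allow for a few genes taking a large share of a library, these sums were 699, 670 and 657 CPM in TACI short and 270, 260 and 267 CPM in TACI long, against 684, 657 and 680 CPM in control. Without EGR1 the set was low in TACI long under both scalings, while TACI short lay above control with column totals and overlapped it with TMM factors.

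The long isoform was first set against the parental line. Of the 10 genes 7 fell and 3 were not called at an adjusted p under 0.05, where 25.9% of all tested genes were called lower and 25.2% higher. At 2-fold or more, 4 of the 10 were called lower, against 5.99% of all genes. The median log2 fold change of the 10 was -0.96, beside -0.0029 over all genes tested. Libraries of both groups did not overlap for 8 of the 10 genes, as for 60.7% of all genes.

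Among the FOS genes, FOS itself fell most, though less than EGR1. FOS, the founding FOS family partner of AP-1, stood at 3.07, 3.16 and 2.67 CPM in TACI long, against 34.7, 33.6 and 36.1 CPM in control, or 115 to 144 counts against 1465 to 1686. It fell 11.7-fold (-3.55 ± 0.07, adjusted p = 2.02e-21 in the same edgeR test). FOSB, a paralogue with a transactivation domain like that of FOS, fell less, to 18, 18.3 and 19.9 CPM in TACI long, against 32, 31.7 and 31.4 CPM in control (1.69-fold, adjusted p = 3.11e-10, edgeR).

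EGR3, a zinc finger factor close to EGR2, was rare throughout, with 24, 25 and 21 counts in TACI long, against 117, 117 and 113 in control. It fell 4.75-fold (-2.25 ± 0.19, adjusted p = 8.7e-10, edgeR). EGR2, which with EGR3 restrains lymphocyte activation, stood at 0.851, 0.812 and 0.649 CPM in TACI long, against 1, 1.15 and 1.05 CPM in control. All 3 TACI long libraries lay under all controls, but the difference did not pass the test (-0.46 ± 0.50, adjusted p = 0.497, edgeR). The fit shares its estimate of a gene's spread over all 9 libraries, so this SE also takes in TACI short. The SD of EGR2 was 1.91 CPM in TACI short, 0.107 CPM in TACI long and 0.0753 CPM in control. EGR2 stayed uncalled in all 20 alternatives, among them both groups compared alone.

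IER2 and both abundant JUN genes fell as well. IER2 stood at 80.6, 78.3 and 78.6 CPM in TACI long, against 288, 272 and 289 CPM in control (3.57-fold lower, adjusted p = 8.14e-20, edgeR). JUNB, an AP-1 subunit of activated lymphocytes, stood at 66.6, 65.9 and 68.6 CPM in TACI long, against 128, 129 and 128 CPM in control. JUND, which most cells express without stimulation, had 87.2, 85 and 85 CPM in TACI long, against 170, 170 and 169 CPM in control. Each of these JUN genes was reduced to about the same degree, JUNB 1.91-fold (adjusted p = 2.67e-14) and JUND 1.98-fold (adjusted p = 5.4e-15, edgeR).

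JUN and FOSL2 had low counts, 38 to 89 per library in TACI long and control, and showed no difference that passed the test. Their SE also take in the TACI short libraries, where the SD was 4.86 CPM for JUN and 3.71 CPM for FOSL2. JUN, the founding JUN subunit, stood at 1.91, 1.69 and 1.07 CPM in TACI long, against 0.826, 1.97 and 1.91 CPM in control (log2 fold change -0.0072 ± 0.85, adjusted p = 0.996, edgeR). FOSL2, a FOS relative without the C-terminal transactivation domain, had 2.03, 1.21 and 1.04 CPM in TACI long, against 1.13, 1.65 and 1.63 CPM in control (-0.04 ± 0.78, adjusted p = 0.975, edgeR). The groups overlapped for both genes, and the sign of each difference turned with single libraries left out.

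**Figure D2:**
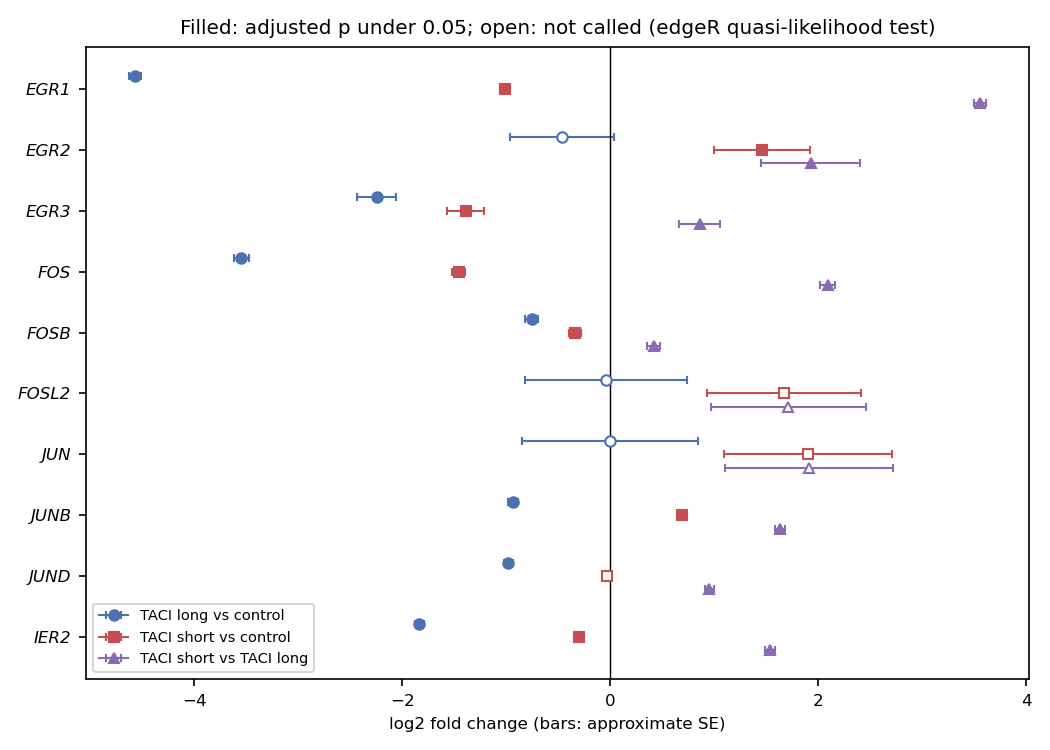
Log2 fold change (horizontal axis, bars are approximate SE) of the 10 genes in TACI long vs control, TACI short vs control and TACI short vs TACI long; filled marks passed an adjusted p under 0.05. EGR1 lies at -4.57 in TACI long and -1.02 in TACI short, while JUNB lies at -0.94 and 0.69.

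The short isoform was set against the same controls. Here 5 of the 10 genes fell, 2 rose and 3 were not called, beside 31.1% of all genes called lower and 31.5% higher. These shares of all genes, 5179 lower and 5256 higher, became 3779 lower and 6862 higher when libraries were scaled by their totals alone, a scaling that differs from the TMM factors by 0.13 on the log2 scale, on average, between TACI short and control. The median of the 10 genes was -0.17, beside 0.03 over all genes tested, and libraries of both groups did not overlap for 8 of the 10, as for 66.4% of all genes.

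The EGR and FOS falls had the same direction as in TACI long. FOS stood at 13.2, 14.9 and 13.5 CPM in TACI short, against 34.7, 33.6 and 36.1 CPM in control (2.75-fold lower, adjusted p = 1.97e-15, edgeR). EGR3 had 43, 47 and 53 counts in TACI short, against 117, 117 and 113 in control (2.62-fold lower, adjusted p = 4.15e-07, edgeR). FOSB was lower by a small step, with 29.2, 26.2 and 26.6 CPM in TACI short, against 32, 31.7 and 31.4 CPM in control (1.27-fold, adjusted p = 2.7e-05, edgeR). IER2 fell 1.23-fold, with 254, 255 and 244 CPM in TACI short, against 288, 272 and 289 CPM in control (adjusted p = 1.74e-06, edgeR). Both comparisons share the control libraries, so their directions are not independent of each other.

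The JUN genes did not follow. JUNB rose 1.62-fold, to 234, 229 and 219 CPM in TACI short, against 128, 129 and 128 CPM in control (log2 fold change 0.69 ± 0.04, adjusted p = 2.64e-12, edgeR). All 3 TACI short libraries lay above all controls, replicate 1 being the highest of them. JUND stood at 185, 185 and 174 CPM in TACI short, against 170, 170 and 169 CPM in control. Its difference was -0.03 ± 0.04 with TMM factors (adjusted p = 0.539, edgeR) but 0.10 with column totals alone (adjusted p = 0.0121), so its direction rests on the scaling.

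JUN, FOSL2 and EGR2 were high in the 2 TACI short libraries that hold the most myeloid marker RNA and not in the third. JUN stood at 1.04, 10.3 and 8.15 CPM in TACI short replicates 1, 2 and 3, against 0.826 to 1.97 CPM in control. FOSL2 followed the same order, with 0.9, 7.39 and 7.25 CPM in TACI short, against 1.13 to 1.65 CPM in control. EGR2 had 1.17, 4.91 and 3.67 CPM in TACI short, against 1 to 1.15 CPM in control. In replicate 1 JUN was within the control range, FOSL2 below it and EGR2 just above it.

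The summed myeloid marker RNA, COL1A1 and COL1A2 moved with these 3 genes, while DCN and EPCAM did not. The part of the myeloid and collagen RNA in the values was not tested. JUN (log2 fold change 1.90 ± 0.81, adjusted p = 0.0817) and FOSL2 (1.67 ± 0.74, adjusted p = 0.0931) did not pass the edgeR test over all 3 TACI short libraries. Both passed without TACI short replicate 1 (JUN 2.4, adjusted p = 0.000345; FOSL2 2.16, adjusted p = 3.33e-10). Without replicates 2 and 3 their signs turned, to -0.69 for JUN and -0.80 for FOSL2 (adjusted p = 0.325 and adjusted p = 0.0654, edgeR). That fit leaves 1 TACI short library, which is assumed to vary like the libraries of the other groups. EGR2 passed (1.46 ± 0.46, adjusted p = 0.0282, edgeR), but not without any single control library (adjusted p from 0.0766 to 0.0912), any single TACI long library (0.0501 to 0.0507) or TACI short replicate 3 (0.0755), nor with both groups compared alone (0.0796). The log2 fold change of EGR2 in these fits stayed between 1.36 and 1.49. With TACI short replicate 1 alone the EGR2 difference was 0.05.

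**Figure D3:**
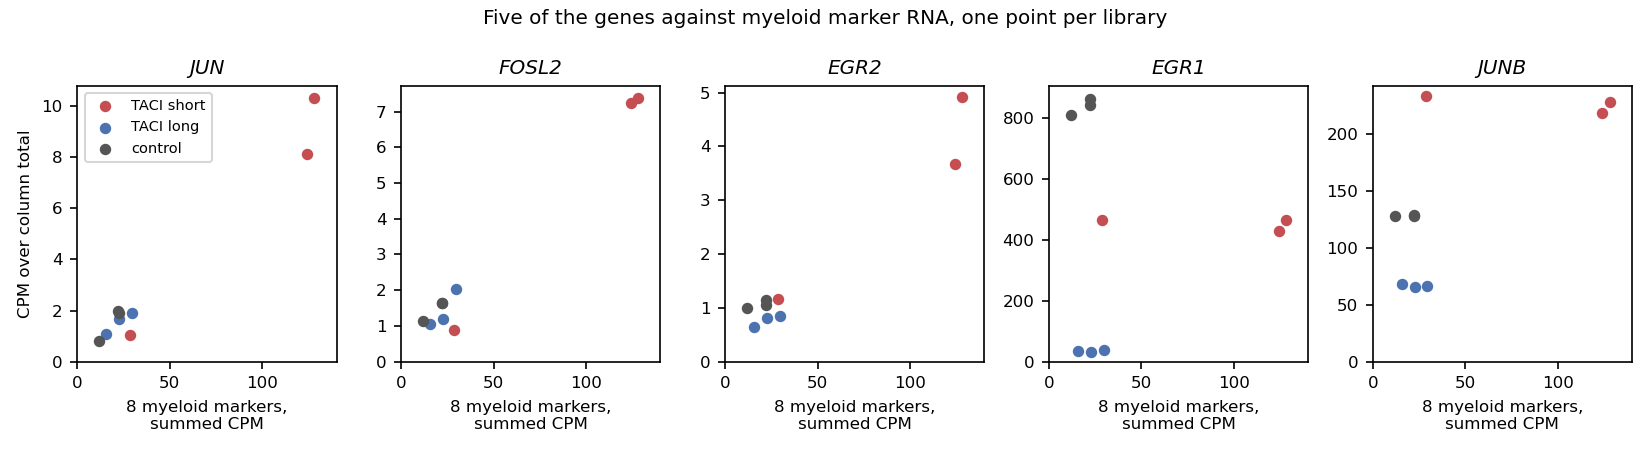
CPM of JUN, FOSL2, EGR2, EGR1 and JUNB (vertical axes) against the summed CPM of 8 myeloid markers (horizontal axis), 1 point per library of TACI short, TACI long and control. JUN, FOSL2 and EGR2 are highest in the 2 TACI short libraries at 124 and 128 CPM of marker RNA, whereas EGR1 and JUNB differ little among the 3 TACI short libraries.

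The 2 transgenic lines were then set against each other. Of the 10 genes 8 were higher in TACI short than in TACI long and 2 were not called, beside 35.2% of all genes called higher and 33.6% lower. With column totals alone, 7214 of all genes were higher and 4359 lower, instead of 5870 and 5604. Libraries of the lines did not overlap for 8 of the 10 genes, as for 71.6% of all genes, and the median log2 fold change was 1.67, beside 0.05 over all genes. The lines also differ in the amount of TNFRSF13B RNA, 3.68-fold more in TACI short in the edgeR fit, so isoform and transgene level cannot be told apart.

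The differences between the lines were largest for EGR1 among the 10 genes, 11.8-fold higher in TACI short (3.56 ± 0.06, adjusted p = 1.55e-22, edgeR). FOS was 4.26-fold higher, JUNB 3.10-fold, IER2 2.90-fold, JUND 1.93-fold, EGR3 1.81-fold and FOSB 1.33-fold, with adjusted p between 4.79e-19 for JUNB and 0.000536 for EGR3 in the edgeR test. EGR2 was 3.80-fold higher (adjusted p = 0.00904, edgeR), and 0.50 on the log2 scale with adjusted p = 0.148 without TACI short replicates 2 and 3. JUN (1.91 ± 0.81, adjusted p = 0.0758) and FOSL2 (1.71 ± 0.75, adjusted p = 0.0823) were not called by edgeR. Without TACI short replicate 1 both were, JUN at 2.4 (adjusted p = 0.000311) and FOSL2 at 2.20 (adjusted p = 2.2e-10), and without replicates 2 and 3 they stood at -0.69 and -0.76.

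Levels of different genes were compared as CPM per kilobase of counted exon. In TACI short the order was EGR1 at 145 ± 6.34, JUNB at 125 ± 4.18, JUND at 97.4 ± 3.5 and IER2 at 81.7 ± 2.02 CPM per kilobase (SD, n = 3), with no overlap of libraries between neighbours. In TACI long JUND led with 46 ± 0.679, ahead of JUNB at 36.8 ± 0.783, IER2 at 25.8 ± 0.408 and EGR1 at 11.2 ± 0.871 CPM per kilobase. In control EGR1 led with 267 ± 8.51, ahead of IER2 at 92.1 ± 3.13 and JUND at 91 ± 0.37, which overlapped, and of JUNB at 70.6 ± 0.0623 CPM per kilobase. FOS and FOSB followed in every group, with FOSB above FOS in TACI short and TACI long and below it in control. The remaining 4 genes, JUN, EGR2, FOSL2 and EGR3, each averaged 1.84 CPM per kilobase or less, and most neighbours among them overlapped.

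The make-up of AP-1 transcripts differed with these shifts. The level per kilobase of JUNB was 31.5, 27.4 and 28.9 times that of FOS in TACI short and 38.6, 37.1 and 45.8 times in TACI long, against 6.6, 6.81 and 6.33 times in control. In summed CPM, the 3 JUN genes held 401 to 424 in TACI short and 153 to 156 in TACI long, against 299 to 301 in control. The 3 FOS genes held 43.3 to 48.4 CPM in TACI short and 22.7 to 23.6 CPM in TACI long, against 67 to 69.2 CPM in control. In TACI short the JUN sum was thus above control and the FOS sum below it.

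Relatives and partners of these factors were examined as a list of 15 genes, of which 14 had enough counts to test. For this list and those below, 25.2% of all genes were called higher and 25.9% lower in TACI long. In TACI short these shares were 31.5% and 31.1%, and between the lines 35.2% and 33.6%. In TACI long 5 were lower and 3 higher, with a median of -0.11. NAB2, a corepressor that EGR1 induces and that binds it, stood at 17.6, 17.2 and 17.6 CPM in TACI long, against 67.9, 68.5 and 67.2 CPM in control (3.88-fold lower, adjusted p = 2.11e-19, edgeR). The small MAF protein MAFF fell 2.48-fold, EGR4 fell 2.39-fold and JDP2, a JUN dimerisation partner, rose 1.61-fold. In TACI short 9 were higher and 2 lower, with a median of 0.34. NAB2 stood at 41.9, 43 and 46.1 CPM there, 1.70-fold lower than in control (adjusted p = 1.57e-12, edgeR). ATF3, a stress-induced AP-1 family member, had 5.67, 7.81 and 7.89 CPM in TACI short, against 1.28, 2.09 and 1.5 CPM in control, and rose 4.01-fold. Without TACI short replicates 2 and 3, 6 of the list were higher and 2 lower.

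The pathway from Ras to ERK and SRF had 26 genes, all tested. In TACI long 13 rose and 6 fell, at a median of 0.12. RASGRP1, a Ras activator downstream of antigen receptors, was the one with the lowest log2 fold change, at 2.48, 2.28 and 2.85 CPM in TACI long, against 9.96, 9.99 and 9.39 CPM in control (3.85-fold lower, adjusted p = 1.36e-14, edgeR). RASGRP3, a Ras activator of B cells, rose 1.60-fold, the Ras exchange factor gene SOS1 rose 1.46-fold and the SRF cofactor gene ELK3 fell 1.52-fold. In TACI short 13 rose and 9 fell, at a median of 0.11, or 16 and 5 with column totals alone. RASGRP1 stood at 24.6, 23 and 23.5 CPM in TACI short, 2.22-fold higher than in control (adjusted p = 8.06e-12, edgeR) and 8.54-fold higher than in TACI long (adjusted p = 8.08e-19). SRF itself had 111, 110 and 110 CPM in TACI short, against 175, 171 and 180 CPM in control (1.73-fold lower, adjusted p = 1.97e-13, edgeR). The JNK and p38 pathway had 6 of 14 tested genes higher and 5 lower in TACI long, where MAP2K6, a kinase of p38, rose 2.90-fold. In TACI short it had 2 higher and 7 lower, but 3 higher and 1 lower with column totals alone, and 2 of each without replicates 2 and 3.

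Other immediate early genes, a list of 25 with 22 tested, moved mostly down in TACI long, with 14 lower and 3 higher at a median of -0.40. ZFP36L1, which speeds mRNA decay, fell 6.43-fold, to 24.4, 23.2 and 22.1 CPM in TACI long, against 143, 152 and 154 CPM in control (adjusted p = 3.3e-22, edgeR). PPP1R15A, a phosphatase subunit of the stress response, fell 3.21-fold, and the ERK phosphatase genes DUSP2 and DUSP5 fell 4.58-fold and 2.86-fold. In TACI short 10 rose and 4 fell, at a median of 0.25, or 7 and 4 without replicates 2 and 3. DUSP2 fell 2.52-fold, while IER5 rose 1.82-fold, GADD45B rose 1.65-fold and the growth inhibitor gene BTG2 rose by 0.51 on the log2 scale. Between the lines 14 of the list were higher in TACI short and 1 lower.

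**Figure D4:**
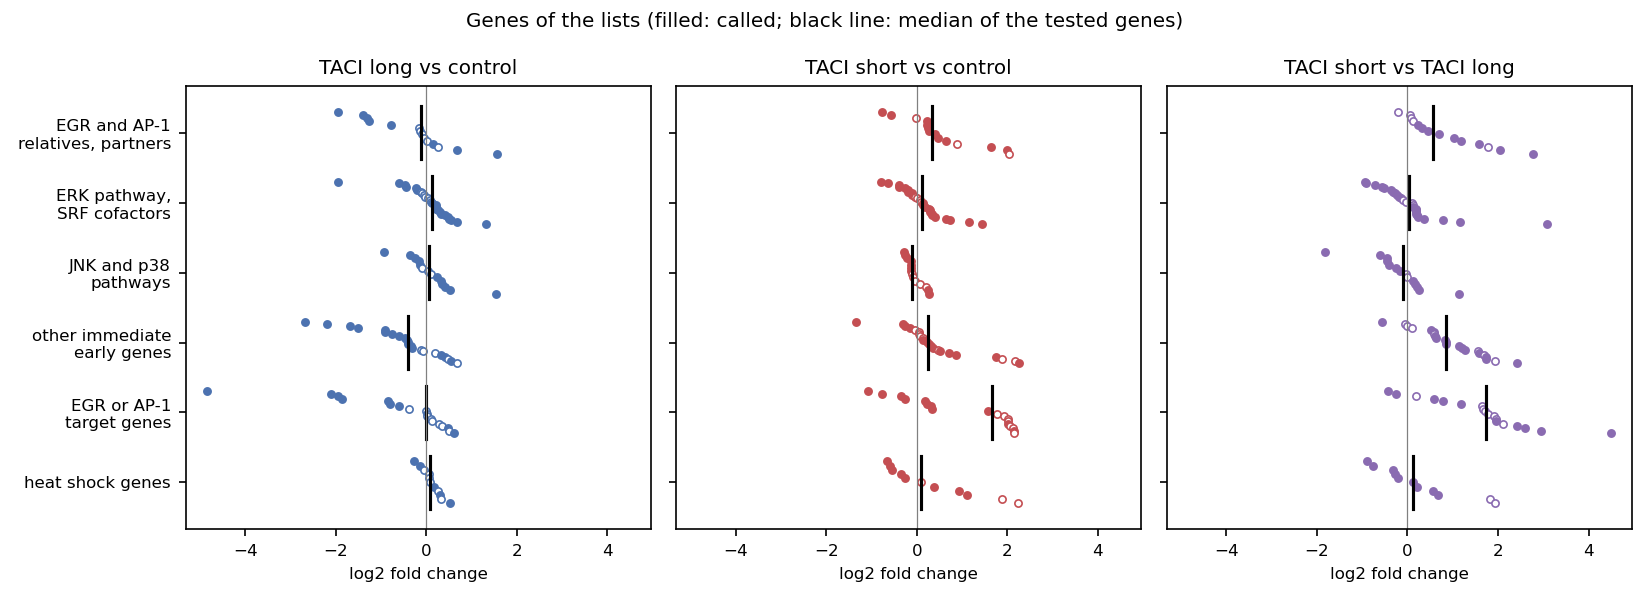
Log2 fold change (horizontal axis) of the tested genes of 6 lists (vertical axis) in the 3 comparisons; each point is a gene, filled where called, and black lines are medians. Other immediate early genes have a median of -0.40 in TACI long against control and 0.86 in TACI short against TACI long.

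Of 20 genes known as targets of EGR or AP-1 factors, 18 were tested. In TACI long 7 were lower and 2 higher, with a median of 0.0029. CD69, an early activation antigen of lymphocytes, stood at 1.68, 1.14 and 1.18 CPM in TACI long, against 38.3, 38.7 and 38.1 CPM in control (28.8-fold lower, adjusted p = 1.71e-21, edgeR). ID3, a target of EGR factors in lymphocytes, fell 3.63-fold and TGFB1 fell 1.80-fold. In TACI short 7 rose and 4 fell. The median there was 1.67 and 7 were not called, and without replicates 2 and 3, which hold the myeloid marker RNA, 4 rose and 4 fell. LTA, which encodes lymphotoxin alpha, rose 4.04-fold, while ID3 fell 2.11-fold. CD69 was 22.5-fold higher in TACI short than in TACI long (adjusted p = 5.64e-21, edgeR).

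The 5 protein-coding genes whose pattern was most like that of EGR1 over the 9 libraries were CD69, SLAMF7, MRI1, SATB1 and RAB4A, of 9362 genes with an average of 5 CPM or more. Likeness was the root mean square difference of centred log2(CPM + 0.5), which was 0.30 for CD69 and 0.50, 0.51, 0.59 and 0.60 for the others. SATB1, a chromatin organiser of lymphocytes, averaged 24.5 ± 0.389 CPM in TACI short and 4.12 ± 0.223 CPM in TACI long, against 44.2 ± 1.24 CPM in control (SD, n = 3). SLAMF7, a surface receptor, averaged 52.5 ± 3.69 CPM in TACI short and 8.39 ± 0.772 CPM in TACI long, against 107 ± 0.484 CPM in control. CD69 averaged 32.8 CPM in TACI short and 1.33 CPM in TACI long, against 38.4 CPM in control. MRI1 averaged 8.02 CPM in TACI short and 0.199 CPM in TACI long, against 7.15 CPM in control. RAB4A averaged 9.33 CPM in TACI short and 0.529 CPM in TACI long, against 8.79 CPM in control. Unlike EGR1, MRI1 and RAB4A thus had no lower mean in TACI short than in control. These genes share the libraries and their grouping with EGR1, so the likeness is a description.

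Heat shock genes, which handling of cells can raise, were called in both directions, as were 25.2% (higher) and 25.9% (lower) of all genes in TACI long. In TACI long 3 of 11 were higher and 2 lower (5 and 2 with column totals alone), with HSPA1B up 1.45-fold and DNAJA1 up 1.23-fold. In TACI short 3 were higher and 5 lower (6 and 5 with column totals alone), with HSPA1B up 2.14-fold and HSPA8, the constitutive HSP70, down 1.59-fold. HSPA1B shares nearly all of its sequence with HSPA1A, so its value is uncertain. The list summed to 6756 to 6979 CPM in TACI short and 7423 to 7451 CPM in TACI long, against 7409 to 7468 CPM in control. The part of handling in the immediate early values was not tested.

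The library kit does not mark strand, so reads of a gene and of an overlapping gene on the other strand cannot be told apart. HOOK2 overlaps 14.2% of the exon length of JUNB, and its counts were 630 to 659 in TACI short and 328 to 348 in TACI long, against 362 to 425 in control, far under those of JUNB. For IER2 an antisense gene overlaps 30.8% of its exon length and is listed at 0 in all 9 libraries. How reads in shared exons were counted is not given, so the levels per kilobase of IER2 and JUNB are less certain.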

How the data were processed

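RNA of 9 libraries was measured as raw counts per Ensembl gene, deposited by the authors without normalization. FastQC, STAR 2.4.0h, HTSeq and build hg38 are named in the submitters' processing notes, while the file headers have the column layout of featureCounts. The release of the annotation, strand setting and filters are not given in the sources used here. Symbols were found for 56410 of 57500 IDs. The 10 genes, the lists and the tests were chosen with earlier results of these data known.

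CPM are counts over the column total. For the tests, filterByExpr (minimum count 10, minimum total 15) kept 16672 genes, all 10 among them. With TMM factors, edgeR 4.0.16 (R 4.3.3) was fitted to all 9 libraries at once by its quasi-likelihood method with robust weights, leaving 6 residual degrees of freedom. Calls are at a Benjamini-Hochberg adjusted p under 0.05. Standard errors are approximate, the absolute log2 fold change over the square root of F. Alternatives used DESeq2 1.42.0, limma 3.58.1, other factors and filters, a replicate block, both groups of a comparison fitted alone, each library left out, and TACI short replicates 2 and 3 left out. That last setting leaves 1 TACI short library, so the spread comes from the other groups. Sums with TMM factors were added after seeing the data. Named list genes are among the 4 with the lowest adjusted p per comparison. Replicates differed by more than sampling noise in every pair (chi-square per degree of freedom 2.31 to 16.2). Counting error at these depths is small except for EGR2, EGR3, JUN and FOSL2.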

Additional observations from a re-analysis of the deposited data

Results flagged for a closer look

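JUNB was called in opposite directions in the transgenic lines against the same controls, higher in TACI short (log2 fold change 0.69 ± 0.04, adjusted p = 2.64e-12) and lower in TACI long (-0.94 ± 0.04, adjusted p = 2.67e-14). The test of TACI short against TACI long gave 1.63 ± 0.04 (adjusted p = 4.79e-19, all by edgeR, Benjamini-Hochberg adjusted). Libraries of both lines did not overlap, as for 71.6% of all genes in this comparison. The difference between the lines was between 1.58 and 1.76 over 20 alternatives.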

How the results depend on the processing

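Of 30 results, a gene in a comparison, 21 kept their direction and their side of the threshold in each of the 20 alternatives, among them all 3 results of EGR1, EGR3, FOS, FOSB, JUNB and IER2. The number of the 10 genes called stayed at 7 in TACI long, lay between 6 and 9 in TACI short and between 7 and 10 in TACI short against TACI long. With single libraries left out, all genes called ranged from 7308 to 9142 in TACI long, 9647 to 11588 in TACI short and 10786 to 12661 between the lines.

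The signs that turned belong to uncalled genes, apart from JUND under column totals. JUN in TACI long was 0.00032 with DESeq2 size factors, 0.0028 with the DESeq2 test, 0.053 with limma-voom, 0.17 with the replicate block and 0.0012 without TACI short replicates 2 and 3, and -0.31 to 0.20 with single libraries left out. FOSL2 in TACI long was 0.063 with the replicate block and -0.38 to 0.14 with single libraries left out. JUND in TACI short was 0.051 with upper-quartile factors, 0.10 with column totals, 0.0055 with a filter of 1 CPM in 3 libraries, 0.039 without TACI short replicates 2 and 3, and -0.072 to 0.0036 with single libraries left out. Without TACI short replicates 2 and 3, JUN was -0.69 and FOSL2 -0.80 against control, and -0.69 and -0.76 against TACI long. Without robust weights and with the DESeq2 test, JUN and FOSL2 were called in both comparisons of TACI short, so that 4 of the 10 genes rose against control instead of 2. Other causes were not tested.

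The replicate numbers name samples but were not found to pair them: same-numbered libraries correlated between -0.27 and 0.43 in their deviations, over 0.1 in 4 of 9 pairs, and in 5 of 18 cases a library correlated best with its own number. The replicate block left 7, 7 and 8 of the 10 genes called, and 8620, 10501 and 11495 of all genes. Depth limits JUN, FOSL2, EGR2 and EGR3, which had 21 to 416 counts per library.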
